A study of Mus musculus with 35 samples.

Results

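Endothelial cells of *Mof* knockout mouse brain were taken from plate 6 of the scRNA-seq, whose libraries are titled P6_9, P6_10, P6_11 and P6_12. A well was counted as endothelial when it held more than 1500 transcripts, spike-ins left out, and when its summed transcripts of *Kdr*, *Cldn5*, *Cd93* and *Cdh5* exceeded 3 other sums, those of mural (*Rgs5*, *Pdgfrb*, *Vtn*, *Kcnj8*), microglial (*C1qa*, *C1qb*, *Ctss*, *Csf1r*) and neural (*Sox2*, *Fabp7*, *Tubb3*, *Stmn2*) genes. By this rule 285 of the 350 plate 6 wells above the minimum were endothelial (81.4%), 74, 87, 71 and 53 in the 4 libraries. Another 39 wells were neural-like, 14 were mural, 2 were microglial, 6 were tied and 4 held none of the 16 genes. They were compared with 199 of 212 wells of the wild-type endothelial gate, PECAM1 high, that the same rule picked (93.9%), of which 24 were in P1_3, 86 in P1_4, 11 in P2_7 and 78 in P2_8. In the other sort gates of plates 1 and 2 the rule picked 0 of 454 wells. The whole series holds 1591 wells above the minimum in 23 single-cell libraries.

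All wells received single cells sorted by FACS from dissociated brain at E14.5, and their RNA was read with mCEL-Seq2, which tags the 3′ end of each transcript with a molecular identifier. The plate 6 samples carry the genotype *Mof* Knockout and no other label of strain, and no sort gate is given for their wells. The allele, a Cre driver, the deleted part of the gene, the sex and the number of embryos are not given in the sources used here. All knockout endothelial wells compared here are on plate 6 and all wild-type ones on plates 1 and 2. Genotype and plate therefore cannot be told apart, and p-values measure the spread between libraries. Wild-type plate 3 entered only as an alternative. Sex-linked transcripts, described below, also differed between the groups, so genotype is mixed with sex. The wild-type single cells came from at most 3 brains, so some of the 4 wild-type libraries share a brain.

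MOF, the protein encoded by *Kat8*, is a histone acetyltransferase that acetylates histone H4 and works in the MSL and NSL complexes. Brain endothelial cells line the vessels that grow into the neural tube. Under Wnt signals from neural cells they acquire tight junctions, restrict transcytosis and take up nutrients through dedicated carriers, the properties that make up the blood-brain barrier.

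The picked wells carried endothelial transcripts that the rule had not used. Of 18 further endothelial markers 16 passed the filter on low counts, among them *Pecam1*, *Tie1*, *Flt1* and *Emcn*, and their summed level was 5570 to 6960 CPM (a gene's share of a library sum, on edgeR's TMM scale) in the wild-type and 5170 to 6350 CPM in the knockout libraries. The 4 genes of the rule summed to 4160 to 5310 CPM in the wild type and 4280 to 4600 CPM in the knockout, a description without a test, since these values picked the wells. The median well held 21 transcripts of them in the knockout and 32 in the wild type. At the edge of the rule the lowest knockout well inside had 1588 transcripts and the highest outside had 1495, with 18 wells between 500 and 1500, and 6 picked wells had an endothelial sum under 2 times the next sum.

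Of the other cell types, none of 11 further mural markers, none of 9 erythroid genes and 1 of 10 fibroblast genes passed the filter. Summed mural markers were at 20.9 to 57.2 CPM in the wild type and 48.6 to 102 CPM in the knockout, and erythroid genes at 0 to 17.2 and 0 to 38.6 CPM. Microglial and macrophage markers outside the rule summed to 167 to 331 CPM in the wild type and 272 to 315 CPM in the knockout, and *C1qa* was at 0 CPM in 4 of the 8 libraries. Neural markers summed to 942 to 1310 and 1210 to 1470 CPM. After each well was thinned to 1500 transcripts, at least 1 transcript of a mural marker was found in 7.54% of wild-type wells (exact 95% interval 4.28 to 12.1) and 10.9% of knockout wells (7.51 to 15.1), and library shares did not differ beyond their spread (two-sided exact permutation test, p = 0.314). Unthinned, these shares were 21.6% and 29.8%. Fibroblast shares were 29.1% and 23.5% thinned (exact permutation test, p = 0.486) and 66.3% and 51.9% unthinned (p = 0.0286). The part of such transcripts in the differences below was not tested.

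Library sums held 83715 to 660719 transcripts in the wild type and 283998 to 530083 in the knockout. The median knockout well held 5709, 5671, 4526 and 5425 transcripts in the 4 libraries, against 7432, 7183, 6686 and 5173 in the wild type (exact permutation test, p = 0.114, where 0.0286 is the smallest that 4 against 4 can give). Thinned to 1500 transcripts, knockout wells had a median of 780.5, 788, 852 and 836 genes and wild-type wells 909.5, 880.5, 856 and 886.5. The groups did not overlap (exact permutation test, p = 0.0286). Thinning kept the gene model *Gm10800*, described below. In the median thinned well it took 7.2% to 13.7% of transcripts in knockout and 3.83% to 8.53% in wild-type libraries. Fewer transcripts were then left for other genes, and the part of this in thinned gene counts and shares was not tested. The median share of mitochondrial transcripts was 11.7% to 15.1% in the knockout and 13.8% to 19.2% in the wild type (exact permutation test, p = 0.0857). The well barcodes are a fixed set, and 74 kept wells of P6_9 and P6_11 and 84 of P6_10 and P6_12 bear the same barcode.

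*Kat8* itself (ENSMUSG00000030801, chr7:127912516-127925837, GRCm38) was hardly sampled. Its transcripts numbered 20 of 1477403 in the wild-type sums and 14 of 1632235 in the knockout sums. The libraries, in the order P1_3, P1_4, P2_7 and P2_8 and then P6_9, P6_10, P6_11 and P6_12, were at 17.2, 13.6, 10.5 and 11.4 CPM and at 7.24, 12.7, 5.65 and 10.9 CPM. The groups overlapped and differed by -4.05 CPM (13.2 ± 2.99 against 9.11 ± 3.24, SD, n = 4 each, exact permutation test, p = 0.143), and the gene did not pass the filter for the test across genes. A *Kat8* transcript was found in 7.69% to 9.3% of wells in wild-type and 2.82% to 6.9% in knockout libraries, which did not overlap (exact permutation test, p = 0.0286). Thinned to 1500 transcripts the shares were 0% to 3.85% and 0% to 3.77% (exact permutation test, p = 0.83). For the Kat8 level in endothelial wells the difference was 2.57 CPM after thinning (exact p = 1), higher in the knockout, and -6.23 CPM in the runs of wells with Y-linked transcripts, described next (exact p = 0.0286). A 3′ tag can come from an allele with a deletion elsewhere in the gene, so these values check neither the label nor the protein. Of the 12 genes of the MOF, MSL and NSL complexes 10 were tested, none was called, none had an unadjusted p under 0.05, and their median log2 fold change was -0.09, against -0.0059 over all 5770 genes tested. The most abundant were *Msl1*, the scaffold of the MSL complex, at 0.10 (edgeR adjusted p = 0.921), and *Ogt*, a glycosyltransferase of the NSL complex, at -0.27 (0.797).

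Sex-linked transcripts split plate 6 into 3 runs of neighbouring wells. *Xist*, the RNA that silences an X chromosome in female cells, was found without Y-linked transcripts (*Ddx3y*, *Eif2s3y*, *Kdm5d* or *Uty*) in 156 of 199 wild-type endothelial wells, and Y-linked transcripts without *Xist* in 0. Of the 285 knockout wells 82 had *Xist* alone, 108 Y-linked transcripts alone, 8 both and 87 neither. P6_9 and P6_12 had *Xist* alone in 0 endothelial wells and Y-linked transcripts alone in 49 and 29. Within P6_10 the change came between barcodes 127 and 129, with 2 wells against it, and within P6_11 between barcodes 64 and 65, with 0 against it. The first run, marked by Y-linked transcripts, held 103 endothelial wells, the second, marked by *Xist*, 110, and the third, again Y-linked, 72. Cells with *Xist* and cells with Y-linked transcripts come from embryos of different sex, so plate 6 held cells of at least 2 embryos. The runs cross library borders, so knockout libraries may share an embryo. With 0 wild-type wells marked by Y-linked transcripts alone, sex and genotype are mixed in the comparison of all wells. The runs were defined from the data after they were seen, and differences between them were not tested.

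**Figure D1:**
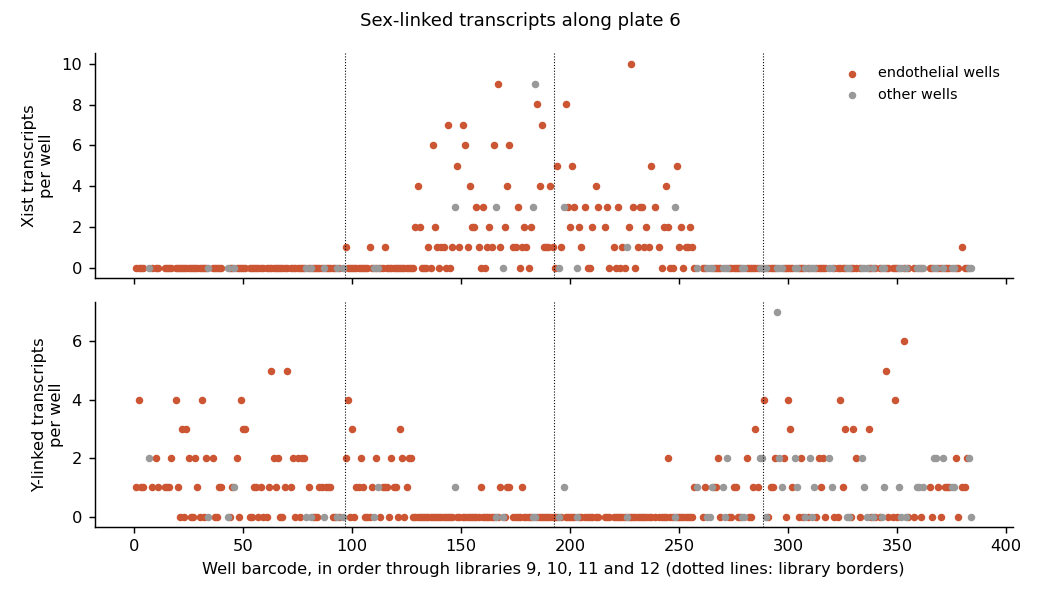
*Xist* transcripts (top) and Y-linked transcripts (bottom) per well, in expected transcript counts, along the 350 wells of plate 6 in barcode order; red points are endothelial wells, grey points other wells, and dotted lines library borders. *Xist* wells form 1 block in the middle of the plate, with Y-linked transcripts on both sides.

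In knockout endothelial wells the transferrin receptor, profilin and the chaperone Hsc70 were lower than in the wild type, and so were 3 amino acid carriers, *Slc7a5*, *Slc38a3* and *Slc1a4*, whose calls depended on single libraries. Most of the genes called higher were gene models, several of them of repeated sequence. Differences in level were tested on library sums with edgeR's quasi-likelihood test, two-sided, with Benjamini-Hochberg adjustment over all genes tested, and a gene was called at an adjusted p under 0.05. Of 5770 genes 90 were called (1.56%), 65 higher (1.13%) and 25 lower (0.433%) in the knockout, and 580 had an unadjusted p under 0.05. All 4 knockout libraries lay above all wild-type libraries in 183 genes (3.17%) and below them in 136 (2.36%), including 58 of the 65 and 17 of the 25. The filter on low counts asked for 24.4 CPM in 4 libraries. Of the 65, 21 (32.3%) had that in all 4 knockout but not in all 4 wild-type libraries, against 778 of all 5770 tested (13.5%). These 21 entered the test through the group where they were high. Of the 25, 3 (12%) entered through the wild type alone, against 472 of all 5770 (8.18%). Of the 25 lower genes 19 were annotated as protein-coding. Of the 65 higher genes 49 were gene models with Gm, RP or Rik symbols or the like (75.4%), against 355 of the 5770 tested (6.15%). When wells were summed by plate, 1 knockout plate against 2, *Xist* and *Ddx3y* were the only genes called, so every other call below rests on taking libraries as replicates. In the run of plate 6 wells with *Xist*, described above and compared with the wild type as 2 sums, 26 of 60 higher genes were called and 2 of 25 lower genes, *Pfn1* and *Atp5h*, while *Tfrc*, *mt-Atp8*, *Slc7a5*, *Apod*, *Hspa8* and *Mfsd2a* did not pass (adjusted p = 0.0588, 0.0756, 0.269, 0.269, 0.288 and 0.678). Their log2 fold changes there were -0.88, -0.76, -0.59, -0.67, -0.88 and -0.42, in the same order. The runs with Y-linked transcripts gave 47 of 55 and 15 of 24. Over all 5470 genes tested in its fit, the *Xist* run gave 26 higher and 5 lower calls. Over all genes tested in theirs, the Y-linked runs gave 55 higher and 18 lower calls. The runs are parts of the knockout wells that made the calls and were compared with the same wild-type wells. They are therefore not an independent check.

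**Figure D2:**
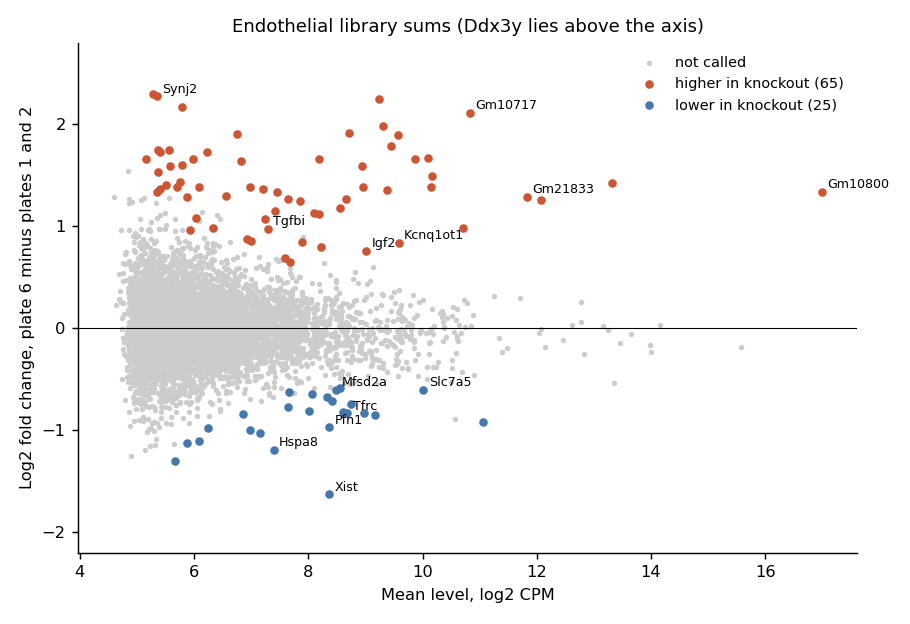
Log2 fold change of plate 6 knockout minus plates 1 and 2 wild-type endothelial library sums (vertical) against the mean level in log2 CPM (horizontal), for 5770 genes; red points are the 65 called higher and blue points the 25 called lower. *Ddx3y* lies above the axis, and *Gm10800* is the farthest called gene to the right.

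Sex-linked genes were among the largest differences. *Xist* (chrX:103460366-103483254) was at 361, 492, 565 and 507 CPM in the wild type and at 0, 287, 305 and 3.63 CPM in the knockout. The knockout libraries lay below the wild type and fell apart into 2 with and 2 nearly without it (log2 fold change -1.63 ± 0.43 SE, edgeR adjusted p = 0.0432; 0.0683, 0.0819, 0.0916 and 0.142 without P1_4, P2_7, P6_9 or P6_12). *Ddx3y*, a Y-linked RNA helicase, was at 133, 50.7, 31.1 and 160 CPM in the knockout and had 1 transcript in all wild-type sums, so no fold is given. In the run of plate 6 wells with *Xist*, taken as 2 sums, *Xist* differed by -0.19 from the wild type (adjusted p = 0.908).

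Of 20 barrier transporters 18 were tested, 3 fell and none rose, where 0.433% of all genes tested were called lower. Of the 18, 14 were below 0, with a median log2 fold change of -0.34 against -0.0059 over all genes. Another 6, all below 0, had an unadjusted p under 0.05 without passing, where 270 of all 5770 genes tested were lower at that level. The sum of the list was 8910 to 10300 CPM in the wild type and 6900 to 7680 CPM in the knockout, and these ranges did not overlap. The genes that fell were *Tfrc*, *Mfsd2a* and *Slc7a5*, and of these *Tfrc* alone was called in all 8 fits that left out 1 library. The list was chosen with earlier results of these data known.

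*Tfrc* (chr16:32608920-32632794), the transferrin receptor that takes up iron, was at 469, 528, 596 and 414 CPM in the wild type and at 280, 287, 237 and 305 CPM in the knockout. No knockout library reached the wild type. The fall was 1.78-fold (log2 fold change -0.83 ± 0.16, adjusted p = 0.00165), it was called in all 8 fits that left out 1 library (adjusted p up to 0.0181), and in the 3 runs of wells the gene was at 298, 282 and 274 CPM. Among wells thinned to 1500 transcripts, 44.2% of wild-type wells (37.2 to 51.4) and 30.9% of knockout wells (25.6 to 36.6) held a *Tfrc* transcript, against 2.56% of the 39 neural-like wells of plate 6. The library shares overlapped (exact permutation test, p = 0.0571). Unthinned, the shares were 79.9% and 54%.

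*Slc7a5* (chr8:121881150-121907694), the light chain of the exchanger that carries large neutral amino acids, was at 1070, 1210, 1230 and 1120 CPM in the wild type and at 707, 803, 763 and 813 CPM in the knockout. The groups were well apart (1160 ± 77.5 against 771 ± 48.4, SD, n = 4 each; log2 fold change -0.60 ± 0.14, adjusted p = 0.0143). The call was lost without P1_4, P6_9 or P6_11 (adjusted p = 0.0524, 0.0759 and 0.0592), after thinning (log2 fold change -0.45, 0.264) and with plate 2 as the only wild type (0.104). Its share of thinned wells was 74.9% in the wild type (68.3 to 80.7) and 61.4% in the knockout (55.5 to 67.1), and in the neural-like wells 7.69%. The library shares did not overlap (exact permutation test, p = 0.0286). Unthinned, with most wells positive, they were 89.9% and 84.2% and overlapped (exact permutation test, p = 0.4). *Slc3a2*, the heavy chain of the same exchanger, was at 1260 ± 137 CPM and 985 ± 106 CPM (log2 fold change -0.37, adjusted p = 0.248) and did not pass.

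*Mfsd2a* (chr4:122946850-122961188), which carries lysophosphatidylcholine with docosahexaenoic acid and restrains transcytosis, was at 417, 432, 377 and 381 CPM in the wild type and at 246, 239, 350 and 229 CPM in the knockout. P6_11 stood above the 3 other knockout libraries and below the wild type (log2 fold change -0.60 ± 0.16, adjusted p = 0.0446). This call held without P2_8 or P6_11 alone. It was lost without P1_3, P1_4, P2_7, P6_9, P6_10 or P6_12 (adjusted p from 0.0698 to 0.19), with plate 2 as the only wild type (0.548) and after thinning, where the log2 fold change was -0.29 (0.723).

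Both other amino acid carriers among the lower genes are on no list and were named after their values were seen. *Slc38a3* (chr9:107650634-107669530), a glutamine carrier, was at 374, 405, 314 and 351 CPM in the wild type and at 215, 190, 257 and 261 CPM in the knockout (log2 fold change -0.67 ± 0.16, adjusted p = 0.0143; 0.0578, 0.0889, 0.075 and 0.1 without P1_3, P1_4, P6_9 or P6_10, 0.119 after thinning and 0.436 with plate 2 as the only wild type). *Slc1a4* (chr11:20302180-20332713), a carrier of serine and other neutral amino acids, was at 426, 428, 439 and 400 CPM and at 236, 311, 265 and 312 CPM (log2 fold change -0.58 ± 0.16, adjusted p = 0.0432). In both genes every knockout library was below every wild-type one. The *Slc1a4* call held without P2_8 and was lost without P1_3, P1_4, P2_7, P6_9, P6_10, P6_11 or P6_12 (adjusted p from 0.0612 to 0.212), after thinning (0.145) and with either plate as the only wild type (0.0711 and 0.395).

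**Figure D3:**
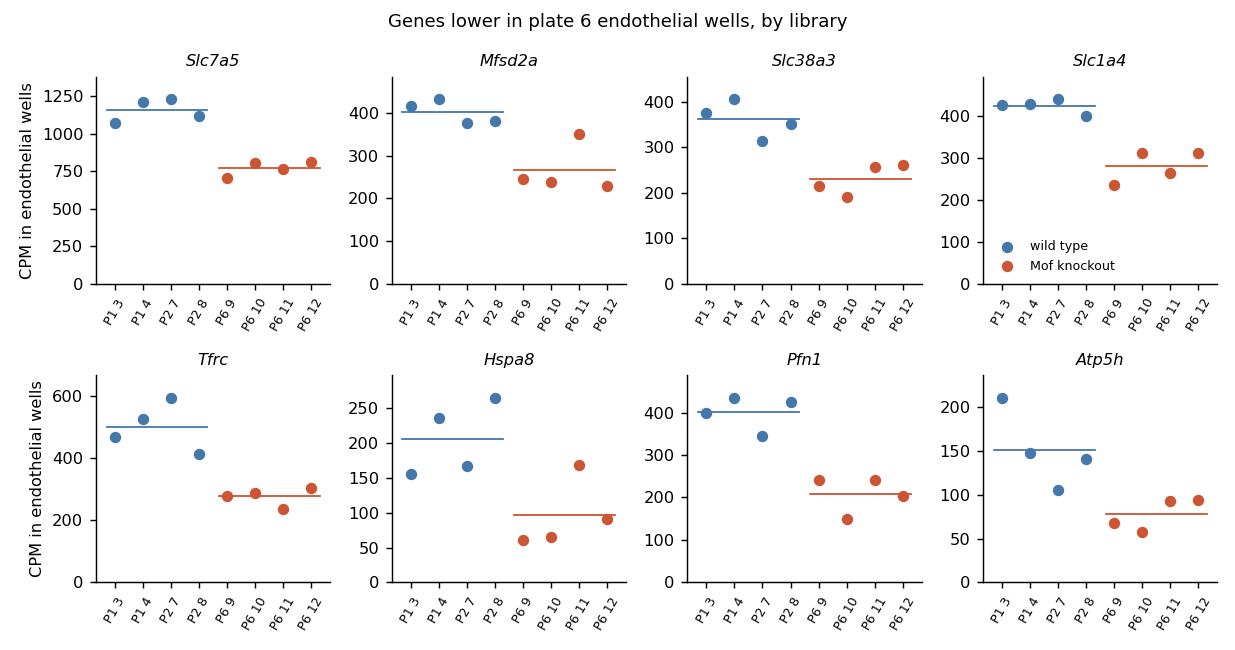
CPM of 8 genes called lower, by library (horizontal axis); blue points are wild-type and red points *Mof* knockout endothelial library sums, lines are means of 4 libraries, and every vertical axis starts at 0. The groups are apart in 7 panels, while for *Hspa8* the library P6_11, at 169 CPM, lies within the wild-type range.

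Other carriers that did not pass included *Slc7a1*, for cationic amino acids (1580 ± 203 against 1110 ± 46.7 CPM, log2 fold change -0.53, adjusted p = 0.0539), *Slc2a1*, for glucose (-0.33, 0.379), and *Slc40a1*, the iron exporter (-0.45, 0.2). The efflux pumps *Abcb1a* and *Abcg2* were at -0.27 and 0.05 (adjusted p = 0.735 and 0.964).

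Promoters from RefSeq (GRCm38.p6, 250 bases before to 50 after a start) of *Mfsd2a*, *Slc1a4*, *Tfrc*, *Apoe*, *Pfn1*, *Nrp2* and *Tgfbi* were searched on both strands for 3 motifs, while *Slc7a5*, *Slc38a3* and *Hspa8* were not searched. The motifs were TGATGNAA, the composite element that ATF4 and C/EBP factors bind at amino acid response genes, CTTTGAT, bound by TCF/LEF factors of the Wnt pathway, and GAANNTTC, part of heat shock elements. They occur in 3.97%, 3.73% and 7.86% of 32851 promoters. *Slc1a4* held 1 TGATGNAA, read on the other strand and printed in capitals, and 1 of 3 start windows of *Apoe*, described further on, held another. None of the 3 was in these windows of *Mfsd2a*, *Tfrc*, *Pfn1* or *Tgfbi*, and 1 CTTTGAT was in that of *Nrp2*. A match is a stretch of letters and says nothing of binding.
*Slc1a4*, chr11:20332664-20332963, minus strand: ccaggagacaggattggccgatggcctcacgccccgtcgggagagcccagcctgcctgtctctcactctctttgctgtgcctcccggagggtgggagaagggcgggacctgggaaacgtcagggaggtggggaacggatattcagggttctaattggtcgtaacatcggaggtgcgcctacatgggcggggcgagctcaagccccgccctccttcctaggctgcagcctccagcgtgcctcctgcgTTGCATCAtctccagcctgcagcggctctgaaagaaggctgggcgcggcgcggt

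Wnt pathway genes of brain endothelium gave no call. Of 15 tested, 11 were below 0, 6 of them with an unadjusted p under 0.05, and the median was -0.33. Over all 5770 genes tested 270 were lower with an unadjusted p under 0.05. *Ctnnb1*, beta-catenin, which carries the signal to the nucleus, was at 810 ± 149 CPM in the wild type and 888 ± 76.8 CPM in the knockout (log2 fold change 0.10, edgeR adjusted p = 0.874), and *Foxq1*, a transcription factor of brain endothelium, at -0.22 (0.724). *Apcdd1*, an inhibitor that Wnt induces, was at -0.59 (0.133), *Foxf2* at -0.52 (0.126), *Tcf7*, a nuclear partner of beta-catenin, at -0.70 (0.27) and *Axin2*, a feedback inhibitor, at 0.52 (0.643).

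Of 11 genes of tight and adherens junctions none was called and the median was -0.14. *Cdh2*, N-cadherin, was at -0.12 (adjusted p = 0.857), *Pecam1*, which joins endothelial cells, at -0.21 (0.735) and *Jam2*, a junctional adhesion molecule, at -0.70 (0.202). Of 6 caveolar and permeability genes none was called, with *Plvap*, the diaphragm protein of fenestrated vessels, at 0.43 (0.379), *Ehd4* at 0.35 (0.759) and *Cav1*, the coat protein of caveolae, at -0.43 (0.683).

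Among VEGF receptors and tip cell genes 1 of 17 rose, where 1.13% of all genes tested were called higher. *Nrp2*, a coreceptor for VEGF-C and semaphorins, was at 146, 157, 115 and 143 CPM in the wild type and at 198, 218, 203 and 287 CPM in the knockout. The groups did not overlap (log2 fold change 0.65 ± 0.17, adjusted p = 0.0432). The call was lost after thinning (adjusted p = 0.637), with either plate as the only wild type (0.152 and 0.294) and in every fit that left out 1 library, P1_3, P1_4, P2_7, P2_8, P6_9, P6_10, P6_11 and P6_12 alike (adjusted p from 0.0543 to 0.203). *Flt1*, a VEGF receptor, was at 0.15 (adjusted p = 0.817), *Apln*, a tip cell ligand, at -0.59 (0.126) and *Dll4*, the Notch ligand of tip cells, at -0.43 (0.44). The median of these 17 was -0.04.

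No gene was called in the lists of Tie receptors (3 tested, median 0.02), the Notch pathway (9, -0.17), basement membrane (14, 0.06), the BMP and TGF-beta pathway (15, 0.07) or endothelial transcription factors (16, -0.12). *Tie1* and *Ptprb*, a receptor and the phosphatase that restrains its partner, were at 0.02 (adjusted p = 0.984) and 0.23 (0.687). *Notch1* and the Notch target *Hes1* were at 0.26 (0.661) and -0.29 (0.551). *Col4a1*, a collagen of the basement membrane, and *Sparc*, which binds it, were at 0.32 (0.403) and -0.05 (0.957). *Eng*, a coreceptor for BMP ligands, was at 334 ± 35.8 and 264 ± 14.7 CPM (-0.35, 0.4) and *Id3*, a BMP target, at 0.22 (0.776). The transcription factors *Epas1* and *Ets1* were at -0.07 (0.942) and -0.18 (0.785). Of 10 arterial and venous genes 1, *Nrp2* again, rose (median 0.22), where 1.13% of all genes tested were called higher. As given above, the *Nrp2* call was lost in every fit that left out 1 library.

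*Hspa8* (chr9:40800984-40810087), the constitutive chaperone Hsc70, was at 155, 236, 167 and 265 CPM in the wild type and at 60.3, 65.5, 169 and 90.8 CPM in the knockout. P6_11 reached the wild type while the others did not (log2 fold change -1.19 ± 0.23, adjusted p = 0.00122, up to 0.031 without 1 library). It was the only one of 11 heat shock genes called, where 0.433% of all genes tested were called lower. The median of the list was 0.17. *Hsp90ab1* and *Hspd1* were at 0.25 (adjusted p = 0.573) and 0.34 (0.657). In thinned wells *Hspa8* was found in 22.1% of wild-type wells (16.5 to 28.5), 9.47% of knockout wells (6.34 to 13.5) and 25.6% of neural-like wells. The library shares overlapped (exact permutation test, p = 0.0857). Unthinned, 66.8% of wild-type and 36.5% of knockout wells held it, with no overlap of libraries (exact permutation test, p = 0.0286).

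*Pfn1* (chr11:70651850-70654644), the actin-binding protein profilin, was at 400, 435, 345 and 425 CPM in the wild type and at 241, 150, 240 and 203 CPM in the knockout. The groups lay far apart (log2 fold change -0.97 ± 0.16, adjusted p = 0.000251, and at most 0.00388 without 1 library). In thinned wells it was found in 45.7% (38.7 to 52.9) and 23.2% (18.4 to 28.5), and library shares did not overlap (exact permutation test, p = 0.0286; unthinned 77.4% and 53%).

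Of 15 genes of the mitochondrial genome 1 fell, where 0.433% of all genes tested were called lower. *mt-Atp8*, a small subunit of ATP synthase, was at 2120, 2930, 2840 and 2470 CPM in the wild type and at 1310, 1300, 1650 and 1320 CPM in the knockout, with no overlap (log2 fold change -0.91 ± 0.15, adjusted p = 0.000102). *mt-Atp6*, whose reading frame overlaps it, was at -0.23 (adjusted p = 0.645), and the median of the 15 was -0.05. Among 62 nuclear genes of the respiratory chain *Atp5h*, another subunit of ATP synthase, was the only one called (151 ± 44.1 against 78 ± 18.7 CPM, log2 fold change -0.99, adjusted p = 0.0054; 0.0573 and 0.0703 without P1_3 or P6_10, 0.418 after thinning and 0.341 with plate 2 as the only wild type). The median of that list was -0.04.

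*Apod*, a lipocalin, was at 719, 638, 596 and 459 CPM in the wild type and at 273, 370, 378 and 341 CPM in the knockout, with no overlap (log2 fold change -0.83 ± 0.16, adjusted p = 0.00213, at most 0.0296 without 1 library). Its call was lost after thinning (adjusted p = 0.0707) and with plate 2 as the only wild type (log2 fold change -0.62, 0.282). *Sepp1*, selenoprotein P, was at 506 ± 92.3 and 303 ± 34.1 CPM (-0.74, adjusted p = 0.00739; 0.0809 without P1_4, 0.078 after thinning, 0.466 with plate 2 alone). *Apoe*, the main lipid carrier of the brain, was at 250, 468, 115 and 280 CPM and at 135, 205, 192 and 160 CPM. Its groups overlapped, and its call (-0.81, adjusted p = 0.0231) was lost without P1_4, P6_9 or P6_12 (0.514, 0.157 and 0.0854), after thinning (0.15), and with plate 2 as the only wild type, where it was at -0.41 (0.808). *Apoe* is also abundant in microglia, where the bulk RNA-seq of sorted wild-type cells has its highest level. The 4 microglial genes of the rule summed to 12.9 to 68.6 CPM in the wild type and 25.4 to 43.6 CPM in the knockout, and the microglial and macrophage markers outside it to 167 to 331 and 272 to 315 CPM, so both sums overlapped. A transcript of the markers outside the rule was found in 81.4% of wild-type and 64.9% of knockout wells (library shares, exact permutation test, p = 0.0571), and thinned in 37.2% and 30.2% (exact permutation test, p = 0.657). The part of microglial RNA in the *Apoe* difference was not tested.

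The rest of the lower set held *Dok4*, an adaptor of receptor tyrosine kinases (191 ± 54.3 against 85 ± 18.1 CPM, log2 fold change -1.03, adjusted p = 0.0027, at most 0.0351 without 1 library but 0.281 after thinning), and *Rgcc*, a regulator of the cell cycle (-0.97, adjusted p = 0.0342). *Rgcc* was called without P2_7 or P2_8 and lost without P1_3, P1_4, P6_9, P6_10, P6_11 or P6_12 (0.0526 to 0.148). *Arf6*, a small GTPase of membrane recycling, was at -0.64 (0.0284), and *Snrpg* and *Sf3a1*, of the spliceosome, at -1.10 (0.0314) and -1.13 (0.0359). *Pacs2* was at -1.30 (0.0174) and *Abhd17a* at -0.84 (0.0342). These calls depended on single libraries. That of *Arf6* was lost without P1_3, P1_4, P6_9, P6_10, P6_11 or P6_12 (0.0534 to 0.148), and that of *Snrpg* without P1_3, P1_4, P6_10 or P6_12 (0.0619 to 0.229). *Sf3a1* was called without P2_7 and lost without P1_3, P1_4, P2_8, P6_9, P6_10, P6_11 or P6_12 (0.0593 to 0.255). *Pacs2* was lost without P1_3, P1_4, P6_9, P6_10 or P6_11 (0.0526 to 0.113) and *Abhd17a* without P1_3, P2_7, P6_9, P6_10 or P6_11 (0.0652 to 0.216). *Rps18-ps3*, a processed pseudogene (-0.71), *Gm9844*, *Gm43541*, *Erdr1* and *Cxx1a* completed the 25. Reads of a processed pseudogene can be split with a near-identical gene. Whether the others of these 5 have such copies was not tested, so all 5 are uncertain. Only *Tfrc*, *Hspa8*, *Pfn1*, *mt-Atp8*, *Dok4* and *Apod* were called in all 8 fits that left out 1 library, 6 of the 25.

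In the bulk RNA-seq of 4 sorted wild-type populations, which did not enter the choice of wells, 14 of the 22 lower genes with a bulk value had their highest mean in endothelial cells (63.6%), against 1387 of 5577 genes tested (24.9%) and 14 of 48 higher genes (29.2%). *Slc7a5* was at 31400 ± 15700 normalized counts there (SD, n = 3) and *Tfrc* at 10400 ± 1340. Of the same 48 higher genes 22 had their highest mean in microglia (45.8%), against 1254 of 5577 (22.5%), and 2 of the 22 lower genes (9.09%).

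Genes with known functions that rose were few. Those in this paragraph other than *Synj2* are outside the rule for named genes and were chosen after their values were seen. *Igf2* (chr7:142650766-142666816), a fetal growth factor expressed from the paternal allele, was at 318, 382, 345 and 351 CPM in the wild type and at 731, 795, 517 and 312 CPM in the knockout. P6_12 lay below all wild-type libraries and the other 3 above them (log2 fold change 0.76 ± 0.19, adjusted p = 0.0242). In the 3 runs of wells it was at 893, 580 and 360 CPM, and its call was lost without P1_3, P1_4, P6_9 or P6_10 (0.0752, 0.0871, 0.172 and 0.17) and with plate 2 as the only wild type (0.196). *Igf2bp1*, which binds *Igf2* and other mRNAs, was at 122 ± 44 and 217 ± 21.7 CPM with no overlap (log2 fold change 0.69, adjusted p = 0.0347, lost without P1_3, P2_7, P6_9, P6_11 or P6_12, up to 0.14, after thinning, 0.516, and with either plate as the only wild type, 0.12 and 0.188). *Tgfbi*, a matrix protein induced by TGF-beta, was at 64.5, 119, 52.3 and 103 CPM in the wild type and at 178, 216, 169 and 174 CPM in the knockout. It was called in all 8 fits that left out 1 library (0.97 ± 0.19, adjusted p = 0.00122, at most 0.0108) and in the *Xist* run of wells (1.07, adjusted p = 0.0209). In that run *Synj2* and *Slco3a1*, described next, were also called (0.00275 and 0.0169), and *Kdm6b*, *Igf2* and *Igf2bp1* were not (0.113, 0.148 and 0.678). *Kdm6b*, a histone H3 demethylase, was at 35.2 ± 3.9 and 74.6 ± 12.1 CPM (1.08, adjusted p = 0.0124; 0.058 and 0.0725 without P1_4 or P6_10, 0.0562 and 0.173 with plate 1 or plate 2 as the only wild type). *Synj2*, a phosphatase of inositol lipids, was at 8.61, 10.5, 10.5 and 13.3 CPM and at 41, 65.5, 56.5 and 50.8 CPM (2.27 ± 0.36, adjusted p = 8.99e-05). It entered the test through the knockout libraries, since no wild-type library reached the filter's level, and DESeq2 gave it no adjusted p. *Slco3a1*, an organic anion transporter, was at 20.8 ± 10 and 59.7 ± 24.3 CPM (1.39, adjusted p = 0.013; 0.137 and 0.194 without P1_4 or P6_10, 0.451 with plate 2 as the only wild type), and 1 of its 4 wild-type libraries reached the filter's level.

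*Kcnq1ot1* (chr7:143203458-143296549), a long noncoding RNA transcribed from the paternal allele against *Kcnq1*, was at 443, 507, 366 and 644 CPM in the wild type and at 1050, 790, 952 and 810 CPM in the knockout, without overlap (log2 fold change 0.84 ± 0.15, adjusted p = 0.000664, at most 0.0115 without 1 library, 0.0938 with plate 2 as the only wild type and 0.0588 in the *Xist* run). Whether counting used the strand is not given in the sources used here.

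Other responses were tested by list and gave no call. Of 14 immediate early genes, which respond within minutes to dissociation and other stimuli, 7 were higher with an unadjusted p under 0.05 and the median was 0.32. Over all 5770 genes tested 310 were higher at that level. The most abundant, *Jun* and *Klf6*, were at 735 ± 142 against 946 ± 227 CPM (log2 fold change 0.33, adjusted p = 0.463) and at 359 ± 69.6 against 496 ± 59.5 CPM (0.44, 0.208). *Fos* was at 0.53 (0.194) and *Ier3* at 0.59 (0.121). Of 10 genes of endothelial activation the median was 0.28, with *Nfkbia*, the inhibitor that NF-kappaB induces, at 0.27 (0.622), *Icam1*, an adhesion molecule for leukocytes, at 0.61 (0.233) and *Vwf*, von Willebrand factor, at 0.70 (0.126). Of 25 chromatin regulators 19 were above 0, with a median of 0.18 and 2 with an unadjusted p under 0.05. *Chd4*, a remodelling ATPase, was at 323, 298, 262 and 286 CPM in the wild type and at 367, 328, 328 and 378 CPM in the knockout, without overlap and without passing (0.25, 0.633).

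Lists of the cell cycle, p53 targets, DNA repair, the unfolded protein and amino acid response, interferon and histones held no called gene either. In S phase (14 tested, median 0.10) *Mcm6* and *Slbp* were at 0.20 (adjusted p = 0.785) and 0.47 (0.429), and in G2 and M phase (19, 0.11) *Hmgb2* and *Mki67* at 0.09 (0.933) and 0.50 (0.368). The p53 targets *Cdkn1a* and *Btg2* were at 0.10 (0.92) and -0.20 (0.799), with a median of -0.15 over 7 tested. DNA repair (8, 0.005) had *Trp53*, which encodes p53, at 0.20 (0.832) and *H2afx* at 0.07 (0.972). In the unfolded protein and amino acid response (9, 0.02) the chaperones *Hspa5* and *Hsp90b1* were at 0.02 (0.981) and 0.04 (0.968), and *Atf4*, the driver of the amino acid response, was at 0.34 (0.508). In the interferon and MHC class I list (7, -0.02) *B2m* and *Irf9* were at -0.17 (0.814) and 0.70 (0.479), and among polyadenylated histones (8, -0.06) *H3f3b* and *H2afz* at 0.09 (0.903) and -0.06 (0.954).

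Metabolic lists were mostly a little below 0. Fatty acid oxidation (14 tested, median -0.29, 12 below 0) had *Acadl* at -0.38 (adjusted p = 0.451) and *Cpt1a* at -0.24 (0.825), glycolysis and hypoxia response (18, -0.19) had *Pkm* at -0.09 (0.898), and cholesterol synthesis (10, -0.12) had *Stard4* at -0.18 (0.855) and *Hmgcs1* at -0.22 (0.848). Oxidative stress (15, 0.03) had *Prdx1* at -0.24 (0.735) and *Sod1* at 0.03 (0.979), and lysosome and autophagy (13, -0.14) had *Lamp1* at 0.17 (0.81) and *Gabarap* at 0.26 (0.643). None of these was called. In lipid handling 1 of 7 was called, *Apoe*, where 0.433% of all genes tested were called lower. As given above, that call depended on single libraries.

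For every gene with a transcript in GENCODE vM21, the share of its 25-base words that also occur in 10 or more other genes was computed. At least 10% of the words were repeated in 28 of the 56 higher genes with a transcript, in 0 of 22 lower genes and in 120 of 5600 genes tested (2.14%). Of these 120, 28 were called higher (23.3%) and 0 lower, and of the 5480 others 28 were called higher (0.511%) and 22 lower. Over all 120 the median log2 fold change was 0.15, against 0.37 between the 2 wild-type plates (plate 2 minus plate 1) and -0.02 in neural-like wells, where 89 were tested. The 120 took 8.47%, 9.58%, 11.8% and 15.8% of all CPM in the wild-type libraries and 24.8%, 23.9%, 18.2% and 22.2% in the knockout. The ranges did not overlap, and the wild-type values were higher on plate 2 than on plate 1. A single model, *Gm10800*, made up more of these shares than the other 119 together. Without it they were 3.76%, 3.86%, 4.12% and 5.15% in the wild type and 6.16%, 5.76%, 5.94% and 6.2% in the knockout, again with no overlap.

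Transcripts of 3 such models show what is counted. The first 2 consist of the mouse major satellite, the tandem repeat of DNA around centromeres. Capitals in them mark the satellite word TTCTCGCCATAT, which on either strand occurs in 18 of 55341 genes (0.0325%) and in 7 of 5600 genes tested (0.125%), of which 6 were called higher (*Gm10715*, *Gm10717*, *Gm10719*, *Gm10800*, *Gm21738* and *Gm26870*). The word was cut from the *Gm10800* transcript, so *Gm10800* holds it by choice. Models that share its sequence can share its reads, so the 6 are not independent of each other. The third reads like the start of a coding sequence of LINE-1 retrotransposons, and its capitals mark words that occur in 10 or more other genes.
*Gm10800*, bases 1 to 180 of the transcript: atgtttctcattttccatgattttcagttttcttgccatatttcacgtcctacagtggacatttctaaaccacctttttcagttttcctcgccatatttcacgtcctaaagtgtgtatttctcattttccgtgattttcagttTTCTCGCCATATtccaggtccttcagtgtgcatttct
*Gm10717*, bases 1 to 180 of the transcript: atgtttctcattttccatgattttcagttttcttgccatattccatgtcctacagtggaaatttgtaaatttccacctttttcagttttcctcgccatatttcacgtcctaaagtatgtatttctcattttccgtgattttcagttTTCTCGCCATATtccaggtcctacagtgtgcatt
*Gm21833*, bases 1 to 150 of the transcript: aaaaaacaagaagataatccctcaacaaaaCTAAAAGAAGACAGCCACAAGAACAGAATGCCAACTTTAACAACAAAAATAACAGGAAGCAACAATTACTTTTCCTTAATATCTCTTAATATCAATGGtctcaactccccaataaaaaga

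*Gm10800* (chr2:98666547-98667301) was at 41100, 57000, 67200 and 107000 CPM in the wild type and at 204000, 203000, 126000 and 165000 CPM in the knockout. In the median well it took 3.83% to 8.34% of all transcripts in wild-type libraries and 6.84% to 13.8% in knockout libraries. Library sums did not overlap (log2 fold change 1.34 ± 0.19, adjusted p = 2.32e-05), while P2_8 and P6_11 came closest. *Gm10717* (chr9:3025417-3033289) was at 370, 385, 596 and 1120 CPM and at 2290, 3010, 1800 and 3710 CPM (2.11 ± 0.24, adjusted p = 3.25e-07), and *Gm21833* (chr16:82828382-82829881) at 1060, 1470, 2160 and 3050 CPM and at 6260, 4240, 4160 and 4440 CPM (1.29 ± 0.20, adjusted p = 8.69e-05). All 3 were called in all 8 fits that left out 1 library. Other models of the largest differences behaved alike. *Gm37903* rose from 152 ± 74.3 to 592 ± 105 CPM (1.91, adjusted p = 3.25e-07), *Gm26905* from 159 to 454 CPM in the wild type to 830 to 1130 CPM (1.79, 3.25e-07) and *Gm42519* from 291 ± 174 to 1080 ± 194 CPM (1.90, 1.98e-06), with 67.5%, 73.5% and 51.5% of their words repeated. *Caps2*, with 10.4%, was at 8.61, 7.53, 0 and 36.2 CPM and at 74.8, 76.1, 48 and 109 CPM (2.17, 0.00038). Of its wild-type libraries 1 reached the filter's level, DESeq2 gave it no adjusted p, and with plate 2 as the only wild type it did not pass (1.37, 0.0955). In *Gm10800*, *Gm10717* and *Gm21833* the wild-type libraries of plate 2 were above those of plate 1. Reads of such models fit many places in the genome, so the place they are listed at is uncertain, and how reads with several matches were counted is not given in the sources used here.

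**Figure D4:**
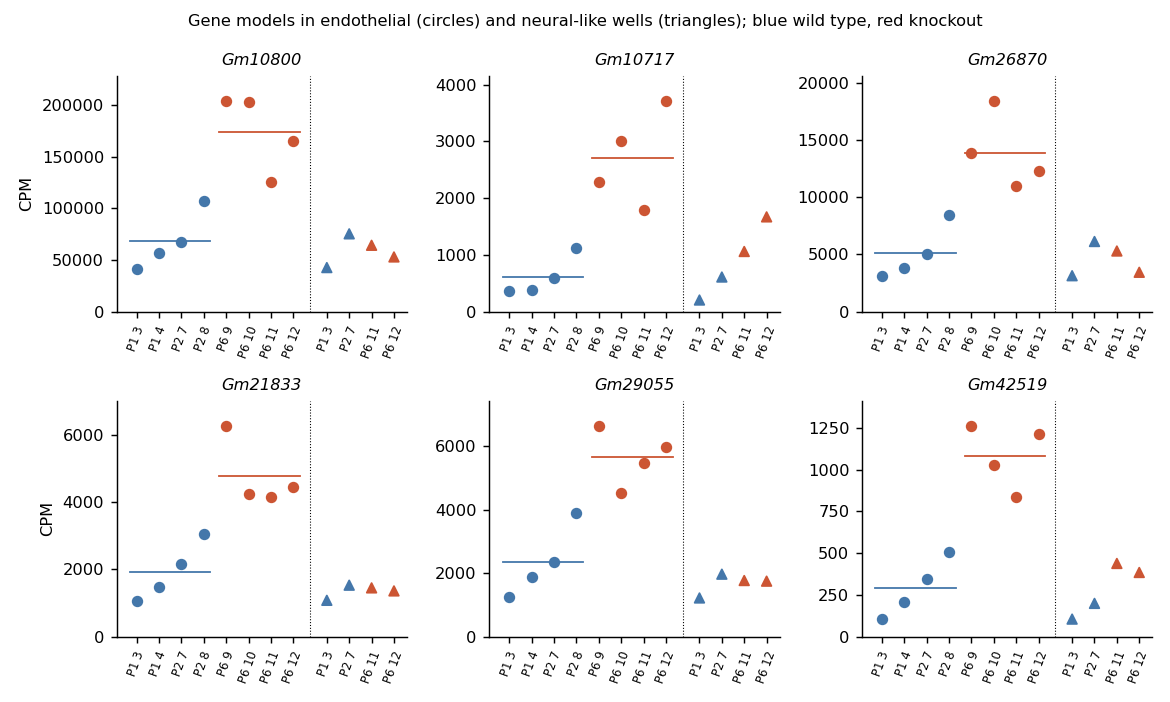
CPM of 6 gene models by library; circles are endothelial library sums with lines at the mean of 4, triangles right of the dotted line are neural-like library sums scaled on their own, blue is wild type and red *Mof* knockout. Endothelial knockout sums lie above all wild-type sums, and wild-type sums of plate 2 above those of plate 1.

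**Figure D5:**
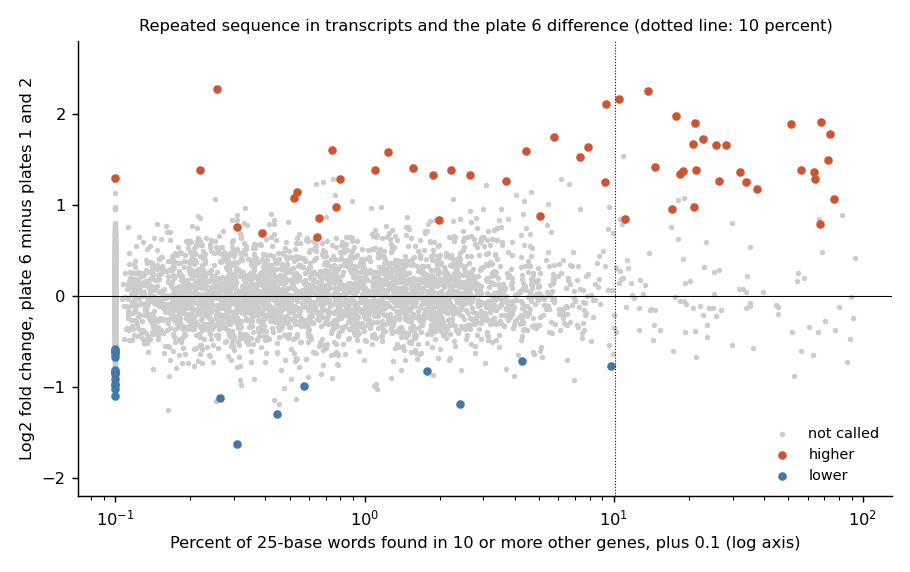
Log2 fold change of plate 6 knockout minus wild-type endothelial sums (vertical) against the percent of a gene's 25-base words found in 10 or more other genes, plus 0.1, on a log axis (horizontal), for 5600 genes; red points were called higher, blue lower, and the dotted line marks 10 percent. Right of the line lie 28 red and 0 blue points.

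A comparison between the 2 wild-type plates, made in the same way, called 26 of the 5770 genes (0.451%), 23 higher and 3 lower on plate 2. It shares its libraries with the comparison above, so values are given side by side. *Gm10800*, *Gm10717* and *Gm21833* differed between these plates by 0.91, 1.32 and 1.13, and *Slc7a5*, *Tfrc*, *Mfsd2a*, *Pfn1*, *Tgfbi* and *Nrp2* by 0.12, 0.01, -0.11, -0.02, -0.08 and -0.13. Over the 65 higher genes the median difference between the wild-type plates was 0.95, and over the 25 lower genes -0.02. With plate 1 as the only wild type 153 genes were called, and with plate 2 alone 42.

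Neural-like wells of plate 6 (9 in P6_11 and 27 in P6_12) and of the wild-type neural gate (54 in P1_3 and 52 in P2_7) allowed a test of whether a difference was larger in endothelial wells of the same libraries. Sex, and so embryo, was not matched between the cell types within a library. Of all 39 neural-like plate 6 wells 35 were in the third run, marked by Y-linked transcripts. In P6_11, 39 of 71 endothelial wells held *Xist* alone and 11 Y-linked transcripts alone, against 1 and 3 of 9 neural-like wells. Of 6022 genes 15 differed (0.249%), 12 with a higher and 3 with a lower endothelial contrast. DESeq2 called 0, with 58 at an unadjusted p under 0.05, and leaving out 1 library gave 0 to 7 calls. *Nr2f2*, *H1f0* and 10 gene models were the 12. The difference was fitted on these 4 libraries alone, while the values given for each cell type come from separate fits, the endothelial one on all 8 libraries, so their subtraction does not return it. *Gm21833* was 1.29 higher in endothelial than in neural-like contrast (adjusted p = 0.0413) and *Gm26870* 1.49 higher (0.0325), while *Gm10717* differed by 0.49 (0.985) and was 1.87 higher in the neural-like knockout wells too. *Nr2f2*, a factor of venous endothelium, differed by 3.12 (adjusted p = 0.00321), with -2.01 in the neural-like and 0.38 in the endothelial wells. *Slc38a2*, a glutamine carrier, differed by -1.51 (0.00858), with 0.86 and -0.42. Neither was called in endothelial wells. For *Tfrc*, *Slc7a5*, *Pfn1* and *Hspa8* the difference between cell types did not pass (adjusted p = 0.935, 0.985, 1 and 1). Among the called genes with a neural-like test, the 44 higher ones had a median of 1.35 in endothelial and 0.29 in neural-like wells, and the 18 lower ones -0.85 and -0.52. These genes were called on the endothelial values, so a smaller median elsewhere can come from that choice alone. The endothelial medians also rest on 8 libraries and the neural-like ones on 4, so they do not compare the cell types.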

How the data were processed

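Per the labels, cells of E14.5 mouse brain were sorted into wells and read with mCEL-Seq2; the submitters' processing notes name BWA 0.6.2-r126 and mm10. The authors deposited expected transcript counts, with identifier numbers corrected for collisions among 4096; 100% of values above 0 were whole within 0.01 once this was undone. Bulk RNA-seq values, a signal of normalized counts as deposited, served only to find the population with each gene's highest mean.

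Wells were picked by marker sums, summed by library, rounded and compared with edgeR 4.0.16 in R 4.3.3 (TMM, its filter on low counts, Benjamini-Hochberg). CPM are TMM-scaled. A library needed 5 picked wells, or 3 of each type for the difference between types. DESeq2 1.42.0, other filters, plates, depths and left-out libraries were alternatives. Library values were compared by exact permutation with SciPy 1.17.1 in Python 3.11.15, and shares have exact (Clopper-Pearson) 95% intervals, which cover counting error only. No doublet caller was run. Names and coordinates are from GENCODE vM21.

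The members and gene lists were chosen with earlier results of these data known. Named are *Kat8*, sex-linked genes, the 12 largest called differences in each direction without overlap and at 20 CPM or more, and per list up to 4 called genes or, with none called, the 2 most abundant; other names were chosen after values were seen. Some genes under this rule are not reported here. Methods were tested on simulated data.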

Additional observations from a re-analysis of the deposited data

Results flagged for a closer look

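In 326 groups of 4 library values of named genes, 17 held 1 library far from the other 3 by Dixon's test (above its 95% critical value), where chance alone marks about 5 percent of groups. Most of the wild-type cases were high values of P2_8 in gene models: *Gm10719* at 400.2 CPM, *Gm10715* at 431, *Gm42445* at 326, *A430073D23Rik* at 343.1, *RP23-233O21.6* at 246 and *9930111J21Rik1* at 145, together with *Ddx3y* at 1.91 CPM, a single transcript. *Dok4* stood out at 272 CPM in P2_7 and *Gm43541* at 340 CPM in P1_3. In the knockout, P6_11 was high for *Mfsd2a* (350 CPM) and *mt-Atp8* (1646 CPM). P6_12 was high for *Gm28268* (196) and *Cep112it* (69) and low for *Ptprb* (490), P6_9 was high for *Gm21833* (6261) and low for *H2afz* (277), and P6_10 was high for *Sod1* (406).

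The contrast between knockout and wild type differed between endothelial and neural-like wells in 15 genes by edgeR. The endothelial contrast was higher, on the log2 scale, by 1.35 for *Gm17555*, 1.55 for *Gm21750*, 1.29 for *Gm21833*, 1.49 for *Gm26870*, 1.46 for *Gm29055*, 1.52 for *Gm37158*, 1.38 for *Gm37746*, 1.72 for *Gm37900*, 1.28 for *Gm37954*, 1.68 for *RP23-341H2.4*, 1.97 for *H1f0*, a linker histone, and 3.12 for *Nr2f2*. It was lower by -1.51 for *Slc38a2*, -4.91 for *Rhoj* and -7.23 for *Tbx3*. *Rhoj* and *Tbx3* were too low in neural-like wells to be tested there alone, so these sizes depend on the prior count. DESeq2 called 0 of these differences, with 58 at an unadjusted p under 0.05.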

How the results depend on the processing

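The count of 90 called genes became 51 with DESeq2 (which gave no adjusted p for 3803 of 5770 genes), 2 with sums per plate, 153 and 42 with plate 1 or plate 2 as the only wild type, and 37 after thinning. Of the alternatives chosen after seeing the data, the *Xist* run alone gave 31 calls and sums without gene models 39. Leaving out 1 library gave 60 (without P1_4) to 132 (without P2_8). The 26 calls between the wild-type plates became 8 with DESeq2 and 15 without a filter, and 0 to 45 without 1 library. The 15 differences between cell types became 0 with DESeq2, 2 without a filter, and 0 to 7 without 1 library. The Kat8 level in endothelial wells, -4.05 CPM, became 2.57 after thinning and -6.23 in the runs with Y-linked transcripts alone (exact p = 0.0286), and ranged from -5.24 to -2.7 without 1 library; the cause of these changes was not tested. No called gene changed its direction in the alternatives that gave it a value, and the 55 named genes without a call gained one 8 times over all alternatives. Transcripts per well have no value after thinning. No paired analysis was possible because the numbers of plate 6 libraries, 9 to 12, are not shared with plates 1 and 2. Depth limits genes such as *Kat8*, and 11 wells in P2_7 make that library the least precise.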
